A study of Mus musculus with 48 samples.

Results

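The genes described here are 10 members of the oxidative stress response that is governed by the transcription factor Nrf2, among the 24973 genes of the deposited expression table. They were taken by name: *Hmox1*, *Srxn1*, *Txnrd1*, *Gclc*, *Gclm*, *Nqo1*, *Slc7a11*, *Nfe2l2*, *Osgin1* and *Prdx1*. All 10 were found in the table, and each passed the minimum mean level for testing in every cell type. Their levels were followed in the 4 cell types of the neurovascular unit that were sorted from the mouse brain after stroke: microglia (MG), astrocytes (AC), pericytes (PC) and endothelial cells (EC).

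Adult male wild type C57BL/6 mice underwent transient occlusion of the middle cerebral artery (tMCAO) for 1 h followed by 23 h of reperfusion. Every mouse in the data had been operated, so the control is the contralateral hemisphere of the same animals, no sham-operated group was used here, and mice with a low neurological deficit score had been left out by the study. Cells of 3 to 4 pooled mice were sorted by flow cytometry from the ischemic (ipsilateral) and the contralateral hemisphere, with VE-cadherin marking endothelial cells, NG2 and PDGFRβ pericytes, ACSA2 astrocytes, and CD11b with low CD45 microglia. This gave 8 groups of 6 libraries, 48 in all. In sorted bulk RNA, fewer expressing cells and less RNA per cell cannot be told apart.

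Nrf2, the product of *Nfe2l2*, is bound by Keap1 in resting cells and handed to a ubiquitin ligase for degradation. Oxidants and electrophiles modify cysteines of Keap1, Nrf2 then accumulates, pairs with small Maf proteins and binds antioxidant response elements in its target genes. Because control acts mainly on the protein, the *Nfe2l2* transcript need not move with its targets. The targets degrade heme, reduce peroxides and disulfides, build glutathione and supply its cystine. In the brain the pathway is best known from astrocytes, and heme oxygenase 1 from microglia and other phagocytes that take up heme after injury.

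For 12 ipsilateral libraries the labels contradict themselves, since a title says pericyte where the column named in the description says microglia, or the reverse. The column was followed here. Grouped in this way, the cell type markers separated the libraries: for 4 of 4 endothelial, 4 of 4 pericyte, 4 of 4 astrocyte and 10 of 10 microglial genes, no library of another type reached the lowest value of the own type. Totals ran from 10549900 to 16942165 normalized counts per library. The step between low values put the reads on genes at an estimated 4900000 to 17100000 per library (median 11850000), so that 3 reads correspond to 2.0 to 7.1 normalized counts. RNA of other cells was present. The 10 microglial markers summed to 0.336 to 17.1% of the microglial level in ipsilateral endothelial cells, 0.203 to 21.5% in ipsilateral pericytes and 0.484 to 8.26% in ipsilateral astrocytes, with the low ends in replicates 5 and 6. Contralateral shares were 0.226 to 4.45%, 0.111 to 5.34% and 0.437 to 6.09% in the same order. Each share refers to microglia of the same hemisphere, whose median sum was 543963 contralaterally and 330050 ipsilaterally. The 8 neutrophil markers summed to 0 to 1639 normalized counts in contralateral and 44 to 13115 in ipsilateral pericytes, 6 to 1726 and 78 to 10155 in endothelial cells, 36 to 1481 and 223 to 5436 in astrocytes, and 6408 to 7971 and 4298 to 19288 in microglia. Monocyte and border macrophage markers summed to 394 to 2038 in contralateral and 1245 to 4607 in ipsilateral microglia, 172 to 512 and 131 to 4662 in pericytes, 186 to 1251 and 298 to 2804 in endothelial cells, and 34 to 577 and 120 to 1625 in astrocytes. In ipsilateral replicates 5 and 6 both sums stayed in the lower part of these ranges in every cell type. Red blood cell markers summed to 904 to 11372 in contralateral and 2666 to 14696 in ipsilateral microglia, and 1762 to 14410 and 2371 to 8805 in pericytes. For endothelial cells these sums were 6255 to 78778 and 5275 to 24330, and for astrocytes 1689 to 19032 and 2087 to 8557. Astrocyte libraries held oligodendrocyte marker RNA (83694 to 452654 summed normalized counts in the ipsilateral ones), and pericyte libraries held smooth muscle and fibroblast marker RNA, which was lower on the ipsilateral side (140792 to 309856) than on the contralateral side (305590 to 456036). The part of these other cells in the changes below was not tested except where a value is given.

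Members of the pathway were called higher after stroke in 3 of the 4 cell types. A gene was called regulated when limma on log2(normalized count + 1) gave an adjusted p of at most 0.05 over all genes tested, a fold change of at least 1.5 in either direction, and more than 10 normalized counts in all 6 libraries of a hemisphere. By this rule 6 of the 10 members were higher in ipsilateral microglia, 3 in astrocytes, 2 in endothelial cells and 0 in pericytes, and none was lower in any cell type. *Hmox1* and *Srxn1* were called in endothelial cells, astrocytes and microglia, *Txnrd1* in astrocytes and microglia, and *Gclm*, *Slc7a11* and *Prdx1* in microglia. Among all genes tested, 4.29% were called higher and 6.27% lower in microglia, 0.334% and 0.00655% in astrocytes, 0.362% and 0.128% in endothelial cells, and 0.441% and 0.581% in pericytes. The 0 calls in pericytes stand beside 7 of 10 members with an unadjusted p under 0.05, against 15.4% of all genes tested there.

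**Figure D1:**
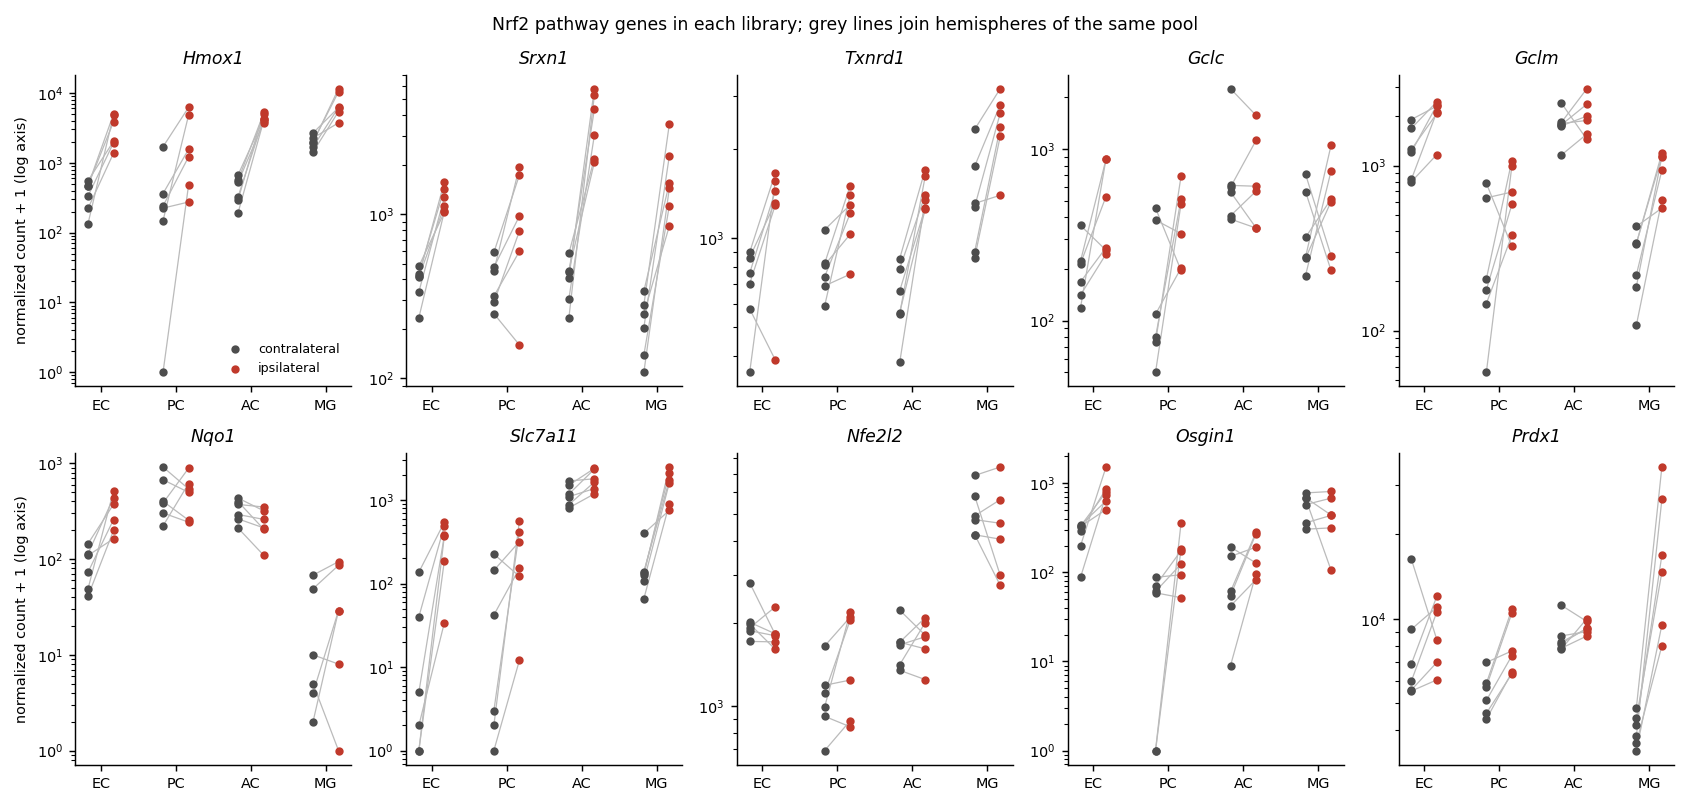
Each panel plots 1 gene on a log axis of the normalized count + 1, with contralateral (dark) and ipsilateral (red) libraries of the 4 cell types and grey lines between hemispheres of the same pool of mice. *Hmox1* and *Srxn1* lines run upward in endothelial cells, astrocytes and microglia, *Prdx1* lines steeply in microglia, while *Nfe2l2* points of both hemispheres overlap in every cell type.

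Members were spread around these calls. The median log2 fold change of the 10 members was 1.34 in microglia, 0.38 in astrocytes, 1.24 in pericytes and 1.45 in endothelial cells, while that of all genes tested was -0.18, -0.06, -0.04 and -0.03. All 6 ipsilateral libraries lay above all 6 contralateral ones for 4 members in endothelial cells (*Hmox1*, *Srxn1*, *Nqo1* and *Osgin1*), 0 in pericytes, 3 in astrocytes (*Hmox1*, *Srxn1* and *Txnrd1*) and 5 in microglia (*Hmox1*, *Srxn1*, *Gclm*, *Slc7a11* and *Prdx1*). The same separation was seen for 1.13%, 0.838%, 0.655% and 3.78% of all genes tested in these cell types.

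**Figure D2:**
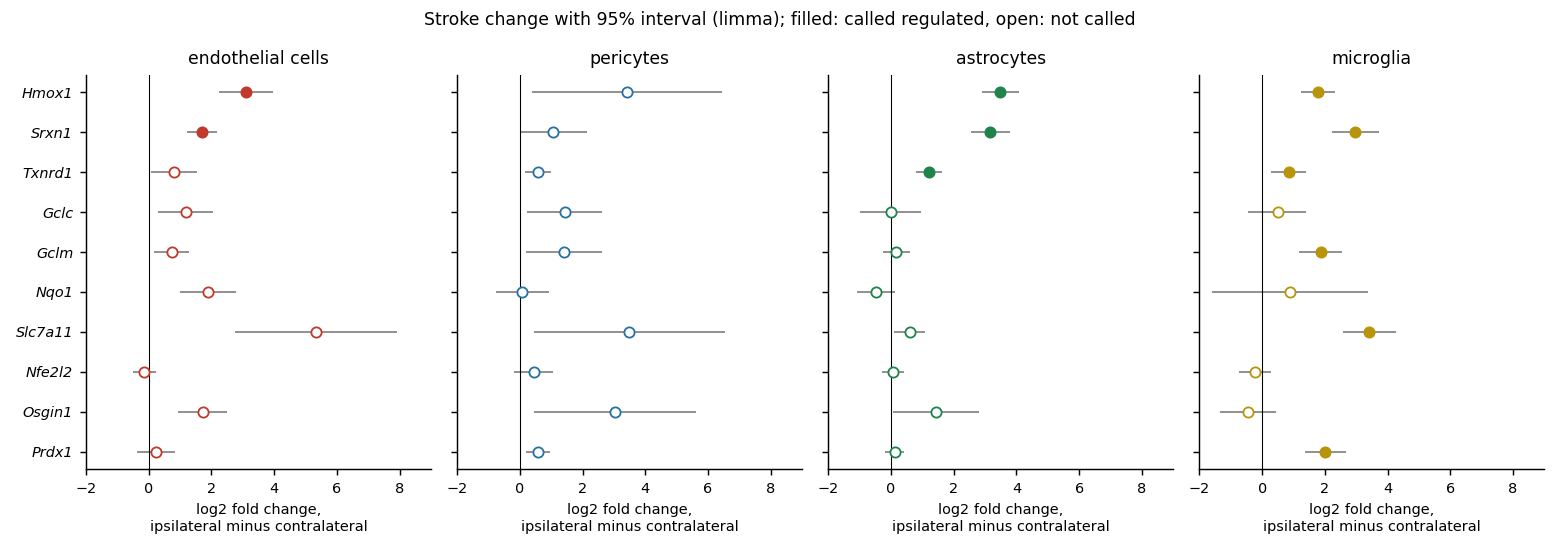
Log2 fold changes (x axis, ipsilateral minus contralateral, limma) of the 10 members (y axis) in the 4 cell types, with 95% intervals as bars, filled where called regulated and open otherwise. Pericyte intervals are wide: that of *Hmox1* runs from 0.38 to 6.45, against 2.91 to 4.07 in astrocytes.

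Promoter letters are shown for the members that were called in microglia and whose RefSeq promoter window (GRCm38.p6, 250 bases before to 50 after a start site) held a searched motif before the start site. Windows were found for 8 of the 10 members (3 windows for *Txnrd1*, 1 for each of the others), and not for *Hmox1* and *Gclc*. The antioxidant response element core was searched as TGACNNNGC and the AP-1 element, which its sequence can overlap, as TGANTCA, both on either strand. In the 4 stretches below, read 5′ to 3′ in the direction of the gene, capitals mark the AP-1 letters in *Srxn1* and the antioxidant response element core, which lies on the opposite strand, in the other genes.
*Srxn1*, chr2:152105397-152105510, + strand: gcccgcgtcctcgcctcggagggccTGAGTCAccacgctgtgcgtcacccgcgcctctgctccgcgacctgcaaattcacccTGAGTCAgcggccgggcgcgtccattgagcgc
*Gclm*, chr3:122245398-122245456, + strand: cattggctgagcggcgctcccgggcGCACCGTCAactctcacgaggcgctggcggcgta
*Txnrd1*, chr10:82859089-82859147, + strand: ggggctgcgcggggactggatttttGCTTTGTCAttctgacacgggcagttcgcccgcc
*Prdx1*, chr4:116685441-116685499, + strand: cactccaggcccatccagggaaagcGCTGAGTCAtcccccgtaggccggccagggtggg
The AP-1 letters of *Srxn1* began 102 and 45 bases before its start site, and the core began 134 bases before the start in *Gclm*, 92 in *Txnrd1* and 133 in *Prdx1*, where it shares letters with an AP-1 match. In addition, the core was found in the *Nfe2l2* window and just after the start site of *Srxn1*, and AP-1 letters in the *Osgin1* window and further upstream in *Prdx1*. In all, 5 member windows held the core and 3 the AP-1 letters, against 12.40% and 7.81% of all 32851 RefSeq windows. A match describes letters only, and windows without one (*Nqo1*, *Slc7a11*) say nothing of elements elsewhere. In *Srxn1* the AP-1 letters nearer the start, read with the gc that follows, differ from the searched core only in the fourth letter. Looser spellings of the core were not searched.

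*Hmox1* (ENSMUSG00000005413, chr8:75093621-75100589, GRCm38) encodes heme oxygenase 1, which opens heme to biliverdin, iron and carbon monoxide. It was the member with the largest called change in endothelial cells and astrocytes, and it was higher on the ipsilateral side in 6 of 6 pools in every cell type. In endothelial cells, contralateral libraries ran from 133 over a median of 401 to 552 normalized counts and ipsilateral ones from 1369 over 2934 to 4966. The lowest ipsilateral library thus exceeded the highest contralateral one. The log2 fold change was 3.11 ± 0.40 (SE, n = 6 per hemisphere; limma, adjusted p = 0.00341).

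Astrocytes gave the narrowest range of ipsilateral levels. Contralateral libraries ran from 190 (median 422) to 667 normalized counts and ipsilateral ones from 3746 (median 4219) to 5367, and the groups stayed far apart. This was a log2 fold change of 3.49 ± 0.27 (limma, adjusted p = 5.1e-05). Microglia started from a higher level: 1424 (median 1974) to 2666 normalized counts contralaterally and 3727 (median 6186) to 11481 ipsilaterally, again without overlap. Their log2 fold change was 1.78 ± 0.25 (limma, adjusted p = 0.000831), and it was not called in a joint fit of all 48 libraries, which shares 1 estimate of the spread (adjusted p = 0.219), or from replicates 5 and 6 alone (log2 fold change 0.97, adjusted p = 0.38).

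Pericytes varied most. A contralateral library held 0 normalized counts of *Hmox1* (replicate 1), the median was 231 and replicate 3 reached 1693, while ipsilateral libraries ran from 273 (median 1382) to 6191. The groups overlapped. Their log2 fold change of 3.42 ± 1.41 was not called (limma, adjusted p = 0.265), although it was in the joint fit of 48 libraries (adjusted p = 0.0182). Ipsilateral pericyte replicates 1 to 6 had 472, 1554, 6191, 4771, 273 and 1210 normalized counts of *Hmox1* beside 15572, 39762, 73757, 58097, 911 and 697 of summed microglial markers, with 6 and 2 of the 10 markers at 0 in replicates 5 and 6. The 2 libraries with the most marker RNA (replicates 3 and 4) thus held the most *Hmox1*, but replicate 6, with the least, exceeded replicate 1. The part of microglial RNA in the pericyte values was not tested.

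In endothelial cells and astrocytes the rise was also present where microglial marker RNA was low. Ipsilateral endothelial replicates 5 and 6, with 1166 and 1151 summed marker counts, had 1369 and 1930 normalized counts of *Hmox1*, against at most 552 in any contralateral endothelial library. Ipsilateral astrocyte replicates 5 and 6, with 1660 and 1872 summed marker counts, had 4224 and 5054, against at most 667. From replicates 5 and 6 alone the log2 fold change was 2.58 in endothelial cells (limma, joint fit, adjusted p = 0.0376) and 3.44 in astrocytes (adjusted p = 0.0295). The part of microglial RNA in the endothelial and astrocyte values was not tested.

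**Figure D3:**
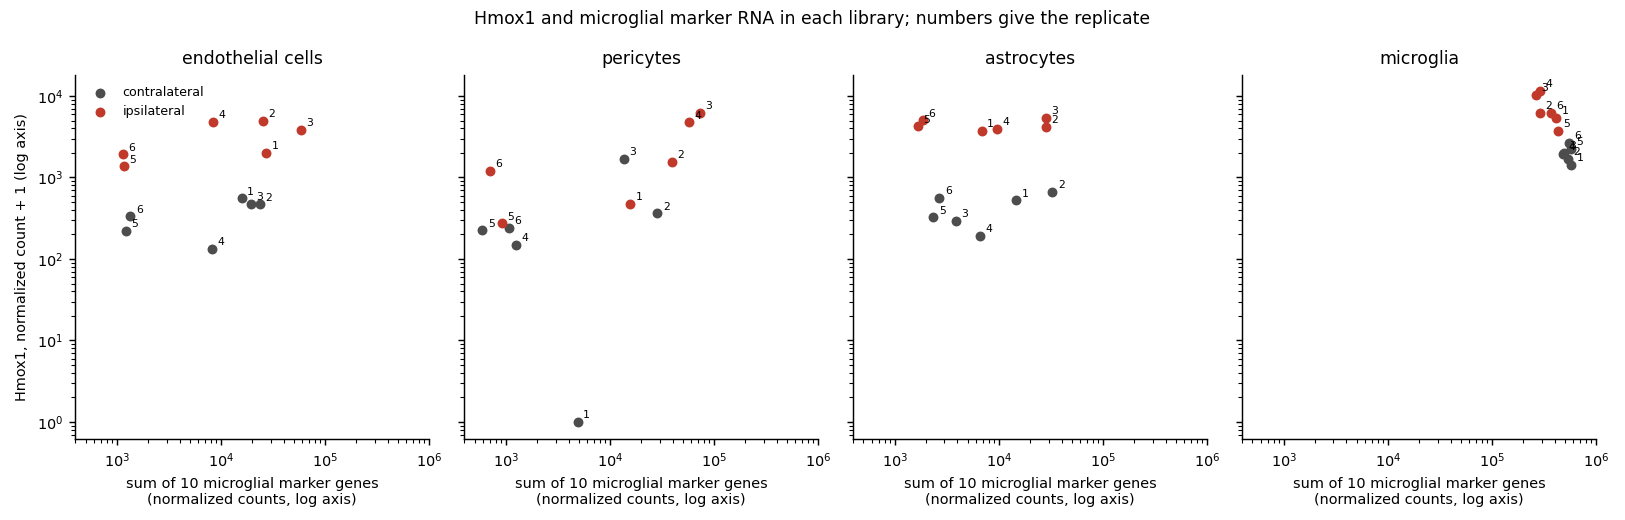
*Hmox1* (y axis, normalized count + 1) against the sum of 10 microglial marker genes (x axis, normalized counts), both on log axes, for each library with its replicate number, contralateral in dark and ipsilateral in red. Ipsilateral endothelial and astrocyte libraries stay above the contralateral ones at both ends of the x axis, whereas 4 ipsilateral pericyte libraries (replicates 1, 2, 5 and 6, at 472, 1554, 273 and 1210) lie below the highest contralateral one (1693, the others 0 to 361).

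*Srxn1* (ENSMUSG00000032802, chr2:152105524-152111376) encodes sulfiredoxin, which rescues peroxiredoxins whose active cysteine has been overoxidised. In astrocytes it went from 232 (median 424) to 576 normalized counts contralaterally to 2066 (median 3676) to 5787 ipsilaterally, a log2 fold change of 3.17 ± 0.29 (limma, adjusted p = 0.000182). In microglia it went from 108 (median 225) to 339 up to 846 (median 1489) to 3537, a log2 fold change of 2.97 ± 0.35 (adjusted p = 0.000171). Neither cell type showed any overlap between hemispheres. In endothelial cells the shift was smaller, from 233 (median 416) to 480 up to 1025 (median 1194) to 1567, again without overlap, with a log2 fold change of 1.70 ± 0.22 (adjusted p = 0.00341). This endothelial call was lost from replicates 1 to 4 alone (1.66, adjusted p = 0.0769) and from replicates 5 and 6 alone (1.79, adjusted p = 0.10), and the astrocyte call from replicates 5 and 6 alone (2.05, adjusted p = 0.235).

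Pericyte *Srxn1* split by replicate. Contralateral libraries ran from 247 to 583 normalized counts. Ipsilateral replicates 1 to 4 lay between 785 and 1931, all above that range, while replicates 5 and 6 gave 159 and 591. With a log2 fold change of 1.07 ± 0.50 the gene did not pass the test (limma, adjusted p = 0.325). Summed microglial markers were 15572 to 73757 in ipsilateral replicates 1 to 4, and 911 and 697 in replicates 5 and 6. The part of microglial RNA in these values was not tested.

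*Txnrd1* (ENSMUSG00000020250, chr10:82833951-82897712) encodes the cytosolic thioredoxin reductase, which uses NADPH to keep thioredoxin reduced. In astrocytes it ran from 380 (median 612) to 851 normalized counts contralaterally and from 1249 (median 1367) to 1698 ipsilaterally, with no overlap and a log2 fold change of 1.21 ± 0.19 (limma, adjusted p = 0.0169). The call ended when replicate 2, 3, 4 or 5 was left out (log2 fold change 1.14 to 1.29, adjusted p = 0.0604 to 0.149). In microglia the ranges of 858 (median 1290) to 2320 and 1391 (median 2492) to 3179 overlapped, although 6 of 6 pools were higher on the ipsilateral side. The log2 fold change of 0.84 ± 0.26 passed narrowly (adjusted p = 0.0492) and failed without replicate 1, 3, 4 or 6 (adjusted p = 0.107 to 0.176) and in the joint fit (adjusted p = 0.0521). Endothelial cells and pericytes gave 0.81 ± 0.35 and 0.59 ± 0.20, neither called, and endothelial replicate 1 was lower on the ipsilateral side (388 against 576 normalized counts).

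*Prdx1* (ENSMUSG00000028691, chr4:116685544-116700822), a peroxiredoxin that reduces hydrogen peroxide and is itself a client of sulfiredoxin, behaved unlike the preceding genes. Microglia ran from 3386 (median 3994) to 4811 normalized counts contralaterally and from 8012 (median 15752) to 34749 ipsilaterally. Replicates 2 and 4 were the highest ipsilateral libraries, at 34749 and 26629, and replicates 5 and 6 the lowest, at 8012 and 9510, still above every contralateral library. The log2 fold change was 2.01 ± 0.30 (limma, adjusted p = 0.00128), and it was also called from replicates 1 to 4 alone (2.35, adjusted p = 0.00143) and from replicates 5 and 6 alone (1.32, adjusted p = 0.00171).

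In the other cell types *Prdx1* was not called. The endothelial log2 fold change was 0.23 ± 0.29 and the astrocyte one 0.12 ± 0.15 (adjusted p = 0.812 and 0.860). In pericytes 6 of 6 pools were higher on the ipsilateral side, with 4379 to 6985 normalized counts contralaterally and 6360 to 10812 ipsilaterally, and the log2 fold change of 0.57 ± 0.17 did not pass (limma, adjusted p = 0.132).

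The genes of glutathione synthesis and cystine import are described next. Glutamate-cysteine ligase, the rate-limiting enzyme of glutathione synthesis, has a catalytic subunit encoded by *Gclc* (ENSMUSG00000032350, chr9:77754535-77794485) and a modifier subunit encoded by *Gclm* (ENSMUSG00000028124, chr3:122245557-122270732). Annotated exons of *Gclm* overlap those of *Gm17494* on the opposite strand and *Gm6061* on the same strand, and reads over more than 1 gene had been dropped by the authors, so its level is uncertain. *Gclm* rose in microglia, from 107 (median 276) to 427 normalized counts contralaterally to 551 (median 1033) to 1187 ipsilaterally. The groups did not overlap, and the log2 fold change was 1.86 ± 0.33 (limma, adjusted p = 0.00287).

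Elsewhere *Gclm* was not called from all 6 replicates of a cell type. Endothelial cells had 6 of 6 pools higher on the ipsilateral side, with 796 (median 1228) to 1898 and 1164 (median 2202) to 2432 normalized counts and a log2 fold change of 0.73 ± 0.26 (limma, adjusted p = 0.261). Pericytes gave 1.41 ± 0.57, with paired log2 changes between -1.27 and 4.15, which was called in the joint fit of 48 libraries (adjusted p = 0.0402). From replicates 5 and 6 alone pericyte *Gclm* was called at 2.76 (limma, joint fit, adjusted p = 0.0154). Replicates 1 to 4 gave 0.74 in the fit of pericytes alone (adjusted p = 0.566). Astrocytes, which held the most *Gclm* contralaterally, gave 0.17 ± 0.20.

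*Gclc* was not called in any cell type from all 6 replicates, but its changes split between replicates. The paired log2 changes of replicates 5 and 6 were 1.97 and 2.88 in endothelial cells, 3.26 and 3.21 in pericytes and 2.02 and 2.16 in microglia. Those of replicates 1 to 4 ran from -0.48 to 1.30, from -1.21 to 2.67 and from -1.57 to 1.09 in these cell types. From replicates 5 and 6 alone *Gclc* was called in endothelial cells (log2 fold change 2.43, limma, joint fit, adjusted p = 0.0393), pericytes (3.23, adjusted p = 0.00834) and microglia (2.09, adjusted p = 0.0479). From replicates 1 to 4 alone, fitted per cell type, it was called in none (0.57, 0.52 and -0.32). Since these fits estimate the spread differently, their calls are not directly comparable. Over all 6 replicates the log2 fold changes were 1.19 ± 0.41 in endothelial cells, 1.43 ± 0.56 in pericytes and 0.49 ± 0.43 in microglia (adjusted p = 0.240, 0.243 and 0.485). Astrocytes did not take part in the split: their values for replicates 5 and 6 were 0.90 and -0.52. The difference between the replicates was not tested.

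*Slc7a11* (ENSMUSG00000027737, chr3:49892526-50443614) encodes xCT, the antiporter that imports cystine for glutathione in exchange for glutamate. In microglia it ran from 65 (median 130) to 398 normalized counts contralaterally and from 755 (median 1679) to 2490 ipsilaterally. The hemispheres were apart, and the log2 fold change was 3.42 ± 0.39 (limma, adjusted p = 0.000145). The call was lost from replicates 5 and 6 alone (2.35, adjusted p = 0.179), where contralateral replicate 5 holds the highest value of its group, 398.

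In endothelial cells *Slc7a11* was near the detection limit on the contralateral side. There, 4 libraries had 0 to 4 normalized counts and replicates 3 and 4 had 39 and 136, while ipsilateral libraries ran from 33 (median 374) to 543, with 6 of 6 pools higher. The log2 fold change of 5.34 ± 1.21 missed the threshold (limma, adjusted p = 0.0737) and passed with the pool of mice as a block (adjusted p = 0.0371). It also passed in the joint fit of 48 libraries (adjusted p = 0.00285) and from replicates 5 and 6 alone (5.82, joint fit, adjusted p = 0.00994). The size of this change rests on the low values. It was 6.64 with a pseudocount of 0.1, not called (adjusted p = 0.116), and 3.60 with 10, called (adjusted p = 0.0478). Pericytes ran from 0 to 225 contralaterally and from 11 to 555 ipsilaterally, with a log2 fold change of 3.49 ± 1.42 (limma, adjusted p = 0.260). It was 5.17 from replicates 1 to 4 and 0.13 from replicates 5 and 6 (neither called). Contralateral replicates 5 and 6 held 225 and 143 normalized counts, against 0, 41, 1 and 2 in replicates 1 to 4. Ipsilateral replicates 5 and 6 held 121 and 317 and the least microglial marker RNA, whose part was not tested. Astrocytes, with 805 to 1695 contralaterally and 1188 to 2394 ipsilaterally, were higher on the ipsilateral side in 6 of 6 pools by 0.59 ± 0.23 (adjusted p = 0.455).

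*Nqo1* (ENSMUSG00000003849, chr8:107388225-107403206), the quinone reductase, and *Osgin1* (ENSMUSG00000074063, chr8:119437118-119446256), an oxidative stress-induced growth inhibitor, separated the hemispheres in endothelial cells without passing the threshold. Endothelial *Nqo1* ran from 40 (median 90.0) to 144 normalized counts contralaterally and from 162 (median 314) to 514 ipsilaterally, a log2 fold change of 1.90 ± 0.42 (limma, adjusted p = 0.0723). Endothelial *Osgin1* ran from 87 (median 308) to 337 and from 506 (median 765) to 1521, a log2 fold change of 1.73 ± 0.36 (adjusted p = 0.0507). It was called when genes needed a mean of 50 (adjusted p = 0.0447), with a pseudocount of 10 (0.0430) or after rescaling within the cell type (0.0429).

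In the other cell types these genes went different ways without a call in the fit of each cell type. *Nqo1* was lower on the ipsilateral side of astrocytes in 6 of 6 pools, with overlapping ranges of 210 to 433 and 109 to 349 normalized counts and a log2 fold change of -0.48 ± 0.29 (limma, adjusted p = 0.657). Pericytes gave 0.08 ± 0.39, and in microglia the gene lay at 1 to 67 and 0 to 93 normalized counts. *Osgin1* gave 3.03 ± 1.21 in pericytes, where contralateral replicates 3 and 4 were at 0, 1.45 ± 0.64 in astrocytes and -0.45 ± 0.42 in microglia. In the joint fit of 48 libraries pericyte *Osgin1* was called (limma, adjusted p = 0.0274).

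*Nfe2l2* (ENSMUSG00000015839, chr2:75675513-75704641), the gene of Nrf2 itself, was not called in any cell type. Its log2 fold change was -0.23 ± 0.23 in microglia, 0.07 ± 0.17 in astrocytes, 0.44 ± 0.29 in pericytes and -0.15 ± 0.17 in endothelial cells (limma, adjusted p = 0.545, 0.939, 0.488 and 0.797). The 95% intervals bound a change to between -0.73 and 0.27, -0.29 and 0.43, -0.17 and 1.06, and -0.51 and 0.22. Both hemispheres overlapped everywhere, for example at 1351 to 2235 and 1250 to 2098 normalized counts in astrocytes.

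The stroke change itself was then compared between cell types, in a fit of all 48 libraries with 6 pairs of cell types for each of the 10 members. This fit shares 1 estimate of the spread per gene over the 8 groups. A gene that varies widely in 1 cell type is therefore harder to call in any pair. Of the 60 differences 3 were called, all for *Prdx1*. Its change in microglia exceeded that in endothelial cells by 1.78 ± 0.35, in pericytes by 1.43 ± 0.35 and in astrocytes by 1.89 ± 0.35 on the log2 scale (limma, adjusted p = 0.0107, 0.0297 and 0.00353). Among all genes, such differences were called for 0.273% between microglia and endothelial cells, 0.727% between microglia and pericytes and 0.293% between microglia and astrocytes. The shares were 0.0267% between pericytes and endothelial cells, 0.0600% between astrocytes and endothelial cells and 0.00667% between astrocytes and pericytes. Leaving out replicate 4 ended all 3 *Prdx1* calls (1.62, 1.34 and 1.67, adjusted p = 0.108, 0.185 and 0.0769), while leaving out replicate 2 or 3 left 1, that against astrocytes. The call against pericytes was also lost without replicate 1 or 6 (adjusted p = 0.0875 and 0.0705), and so held in 1 of these 6 fits.

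The remaining differences were not called. For *Srxn1* the change in microglia minus that in pericytes was 1.90 ± 0.54 (limma, adjusted p = 0.0791), and this passed with the pool of mice as a block (adjusted p = 0.0263). The change in astrocytes minus that in pericytes was 2.10 ± 0.54 (adjusted p = 0.179). For *Hmox1* the change in microglia minus that in astrocytes was -1.71, with a 95% interval from -4.10 to 0.68. In microglia minus endothelial cells it was -1.33 (-3.72 to 1.06). This fit, with its shared spread, thus did not resolve the smaller fold in microglia. In the separate fits the SE for *Hmox1* was 1.41 in pericytes and 0.25 to 0.40 elsewhere. Their 95% intervals were 1.24 to 2.32 in microglia, 2.91 to 4.07 in astrocytes and 2.24 to 3.97 in endothelial cells, which were not tested against each other. For *Slc7a11* the change in astrocytes was below that in endothelial cells by 4.75 on the log2 scale (-7.69 to -1.81, adjusted p = 0.360). Microglia minus astrocytes gave 2.83 for *Slc7a11* and 1.69 for *Gclm* (limma, adjusted p = 0.609 and 0.240). In the separate fits the 95% intervals of these cell types did not overlap for either gene. They were 2.58 to 4.26 and 0.10 to 1.08 for *Slc7a11*, and 1.16 to 2.56 and -0.27 to 0.61 for *Gclm*.

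Contralateral levels differed more between cell types than stroke changes did. Of 60 differences between contralateral groups, 36 were called at an adjusted p of at most 0.05 and a difference of at least 1.5-fold. By pair, 4 of 10 members differed between pericytes and endothelial cells, 4 between astrocytes and endothelial cells, 7 between microglia and endothelial cells, 5 between astrocytes and pericytes, 7 between microglia and pericytes and 9 between microglia and astrocytes. Over all genes the shares were 34.6%, 49.1%, 41.6%, 45.4%, 48% and 50.7% in the same order. The counts lay near these shares for the 3 pairs without microglia and above them for the 3 pairs with microglia.

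Microglia held the highest contralateral levels of *Hmox1*, *Nfe2l2* and *Txnrd1*. *Hmox1* averaged 1997 ± 435 normalized counts (SD, n = 6) in microglia, 444 ± 623 in pericytes, 426 ± 184 in astrocytes and 363 ± 163 in endothelial cells. Microglia exceeded each of the others, by 2.32 to 3.91 on the log2 scale (limma, adjusted p = 0.000117 to 0.0178), and the other 3 were not told apart. The *Hmox1* difference from astrocytes was not called without replicate 4, 5 or 6 (2.12 to 2.34, adjusted p = 0.0534 to 0.0686), from replicates 1 to 4 (0.141), from contralateral libraries alone (0.0553) or with a pseudocount of 0.1 (0.0679), and that from endothelial cells not without replicate 4 (0.0552) or from replicates 1 to 4 (0.143). *Nfe2l2* fell from 5130 ± 1046 in microglia over 2058 ± 383 in endothelial cells and 1682 ± 312 in astrocytes to 1095 ± 325 in pericytes, with endothelial cells and astrocytes the only neighbours in this order not told apart, although astrocytes and pericytes were no longer told apart without replicate 1 (0.44, adjusted p = 0.140). *Txnrd1* averaged 1400 ± 554 in microglia against 633 to 786 in the other types, which were not told apart, and microglia exceeded each of them by 0.77 to 1.10 on the log2 scale (adjusted p = 0.000526 to 0.0157). The difference from pericytes was not called without replicate 5 (0.57, adjusted p = 0.115) or from replicates 1 to 4 (0.52, adjusted p = 0.262).

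Astrocytes had the highest mean RNA levels of *Slc7a11*, *Gclm* and *Gclc*, but only for *Slc7a11* were they told apart from every other cell type. *Slc7a11* averaged 1194 ± 349 normalized counts in astrocytes, 161 ± 119 in microglia, 68.7 ± 94.3 in pericytes and 30.0 ± 54.1 in endothelial cells, and each step but the last was called (limma, adjusted p = 0.0110 for astrocytes against microglia). The first step was not called with a pseudocount of 0.1 (adjusted p = 0.0531), and that from microglia to pericytes, 3.28 on the log2 scale, was not called without replicate 3 (2.72, adjusted p = 0.0508) and was -0.15 from replicates 5 and 6 alone. *Gclm* averaged 1776 ± 390 in astrocytes and 1275 ± 445 in endothelial cells, a pair not told apart. Pericytes at 333 ± 298 and microglia at 268 ± 119 were not told apart either and lay below both others. *Gclc* averaged 801 ± 711 in astrocytes, where replicate 6 reached 2240 and the other libraries 389 to 612. Microglia followed at 370 ± 215, not told apart from astrocytes (adjusted p = 0.10), then endothelial cells at 203 ± 85.6 and pericytes at 191 ± 178, both called below astrocytes. Oligodendrocyte marker RNA in the contralateral astrocyte libraries (48141 to 391125 summed normalized counts) bears on all astrocyte levels, and its part was not tested.

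The remaining members had other orders. *Nqo1* was highest in pericytes (482 ± 261) and astrocytes (328 ± 86.5), a pair not told apart, lower in endothelial cells (87.5 ± 40.8) and lowest in microglia (22.0 ± 28.3), where 4 of 6 contralateral libraries held at most 9 normalized counts. The step from astrocytes to endothelial cells was not called without replicate 4 or 5 (1.78 and 1.71, adjusted p = 0.0561 and 0.0906). *Osgin1* averaged 563 ± 192 in microglia and 262 ± 99.8 in endothelial cells, and 84.2 ± 70.9 in astrocytes and 45.8 ± 37.0 in pericytes, where the members of each pair were not told apart. Astrocytes were not called below endothelial cells without replicate 1 or 5 (-1.98 and -2.01, adjusted p = 0.0714 and 0.0703). *Prdx1* averaged 8653 ± 1271 in astrocytes, 8241 ± 4177 in endothelial cells, 5446 ± 959 in pericytes and 4034 ± 534 in microglia with no neighbours in this order told apart, while astrocytes were called above pericytes and microglia, and endothelial cells above microglia. The call of astrocytes above pericytes was lost without replicate 1, 4 or 6 (0.62 to 0.69, adjusted p = 0.0519 to 0.0632). *Srxn1* was close to even, at 402 ± 121 in astrocytes, 393 ± 130 in pericytes, 385 ± 88.1 in endothelial cells and 219 ± 87.1 in microglia, where only astrocytes against microglia was called (adjusted p = 0.0398), and not without replicate 2, 3 or 6 (adjusted p = 0.0782 to 0.204). With the pool of mice as a block, microglia were also called below endothelial cells and pericytes (adjusted p = 0.0282 and 0.0250).

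Between genes, levels were compared per kb of exon. *Prdx1* was the most abundant member in endothelial cells, pericytes and astrocytes, with 1790 to 2844 normalized counts per kb contralaterally. In microglia *Nfe2l2* (1351 ± 276 per kb), *Prdx1* (1326 ± 176) and *Hmox1* (1140 ± 249) lay side by side. *Slc7a11* was the least abundant member per kb outside astrocytes, at 2.15 in endothelial cells, 4.93 in pericytes and 11.6 in microglia, and in microglia *Nqo1* was close to it at 14.2.

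**Figure D4:**
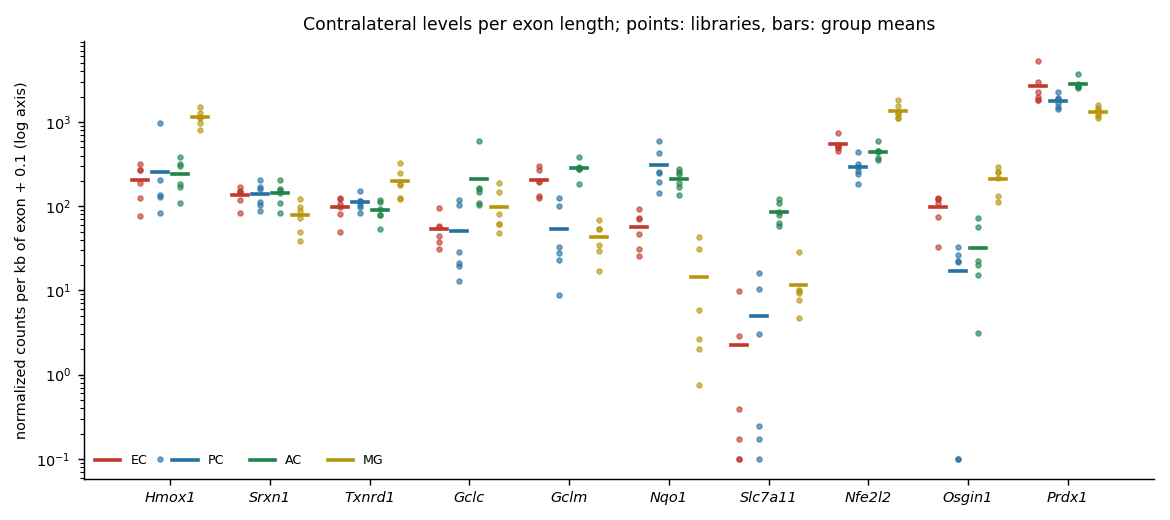
Contralateral levels of the 10 members (x axis) in normalized counts per kb of exon + 0.1 on a log axis, with libraries as points and group means as bars, coloured by cell type. Microglia lie highest for *Hmox1* (mean 1140 per kb) and *Nfe2l2* (1351), astrocytes for *Slc7a11* (85.8), and *Nqo1* is lowest in microglia (14.2).

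Genes around the pathway were taken as 5 lists. In endothelial cells, pericytes and astrocytes none of the tested genes of any list was called. In microglia several were, beside a background of 4.29% higher and 6.27% lower. Of the 22 glutathione, thioredoxin and peroxide enzymes, 7 were called higher and 1 lower, with a median log2 fold change of 0.52. *Glrx*, which uses glutathione to reduce protein disulfides, rose by 2.58 ± 0.32 (limma, adjusted p = 0.000239), from 325 to 544 up to 1258 to 5658 normalized counts. *Gsr*, the glutathione reductase, rose by 1.72 ± 0.26 (adjusted p = 0.00138), and *Sod2*, the mitochondrial superoxide dismutase, by 1.36 ± 0.23 (0.00213). *Txn1* (thioredoxin, 1.39 ± 0.36) and *Prdx3* (mitochondrial peroxiredoxin, 0.90 ± 0.24) passed less clearly (0.0218 and 0.0277), and each lost its call when replicate 1, 3 or 4 was left out, *Prdx3* also without replicate 6. The gene called lower was *Txnip*, an inhibitor of thioredoxin, which fell by 1.21 on the log2 scale (SE 0.22, adjusted p = 0.00356), from 9798 to 15486 down to 3829 to 8487 normalized counts.

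The heme and iron list had the largest share of calls. Of 13 tested genes 6 were higher and 2 lower in microglia, with a median of 0.62. *Hp*, the hemoglobin-binding haptoglobin, rose from 12 to 117 up to 172 to 512 normalized counts (log2 fold change 3.27 ± 0.51, limma, adjusted p = 0.00158). *Fth1*, the ferritin heavy chain that stores iron, rose from 43433 to 69933 up to 104325 to 663556 (1.99 ± 0.40, adjusted p = 0.00573), and the light chain *Ftl1* by 1.30 ± 0.36 (0.0306). *Alas1*, which starts heme synthesis, rose by 1.03 ± 0.21 (0.00649). The iron exporter *Slc40a1* (ferroportin) fell by 1.43 (SE 0.31, adjusted p = 0.00881) from 2057 to 2818 down to 280 to 1315, and *Fech*, which inserts iron into heme, fell by 0.65 (SE 0.17, adjusted p = 0.0264). *Hmox2*, the constitutive heme oxygenase, gave 0.03 ± 0.20 in microglia and was not called in any cell type. *Hp* is also a neutrophil product, and neutrophil marker RNA in ipsilateral microglia reached 19288 summed normalized counts in replicate 2 against 4298 to 6809 in the other replicates. In the joint fit of 48 libraries *Hp*, *Ftl1*, *Slc40a1* and *Fech* were not called (adjusted p = 0.0644 to 0.175), and *Ftl1* lost its call without replicate 1, 3 or 4 and *Fech* without any replicate but 4.

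Detoxification and NADPH supply had fewer calls. Of 14 tested detoxification and export genes 2 were higher in microglia: *Esd*, an esterase that frees glutathione from its formaldehyde adduct, by 2.34 ± 0.38 (limma, adjusted p = 0.00198), and the aldo-keto reductase *Akr1b8* by 4.34 ± 0.84 (0.00493), with 0 to 17 normalized counts contralaterally and 17 to 116 ipsilaterally. Of 6 NADPH genes, only *Taldo1*, a transaldolase of the pentose phosphate pathway, was called (1.14 ± 0.27, adjusted p = 0.0163), a call that ended without replicate 1, 3 or 4. Of 13 tested regulators and relatives of Nrf2, *Bach2*, a repressor of the Bach family, was lower (-1.58 ± 0.34, adjusted p = 0.00866) from 131 to 414 down to 52 to 131, and the median was -0.30. In the joint fit *Bach2* was not called (adjusted p = 0.298). *Keap1* gave -0.30 ± 0.20 in microglia, -0.57 ± 0.23 in pericytes, -0.15 ± 0.15 in astrocytes and -0.03 ± 0.33 in endothelial cells, with no call.

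**Figure D5:**
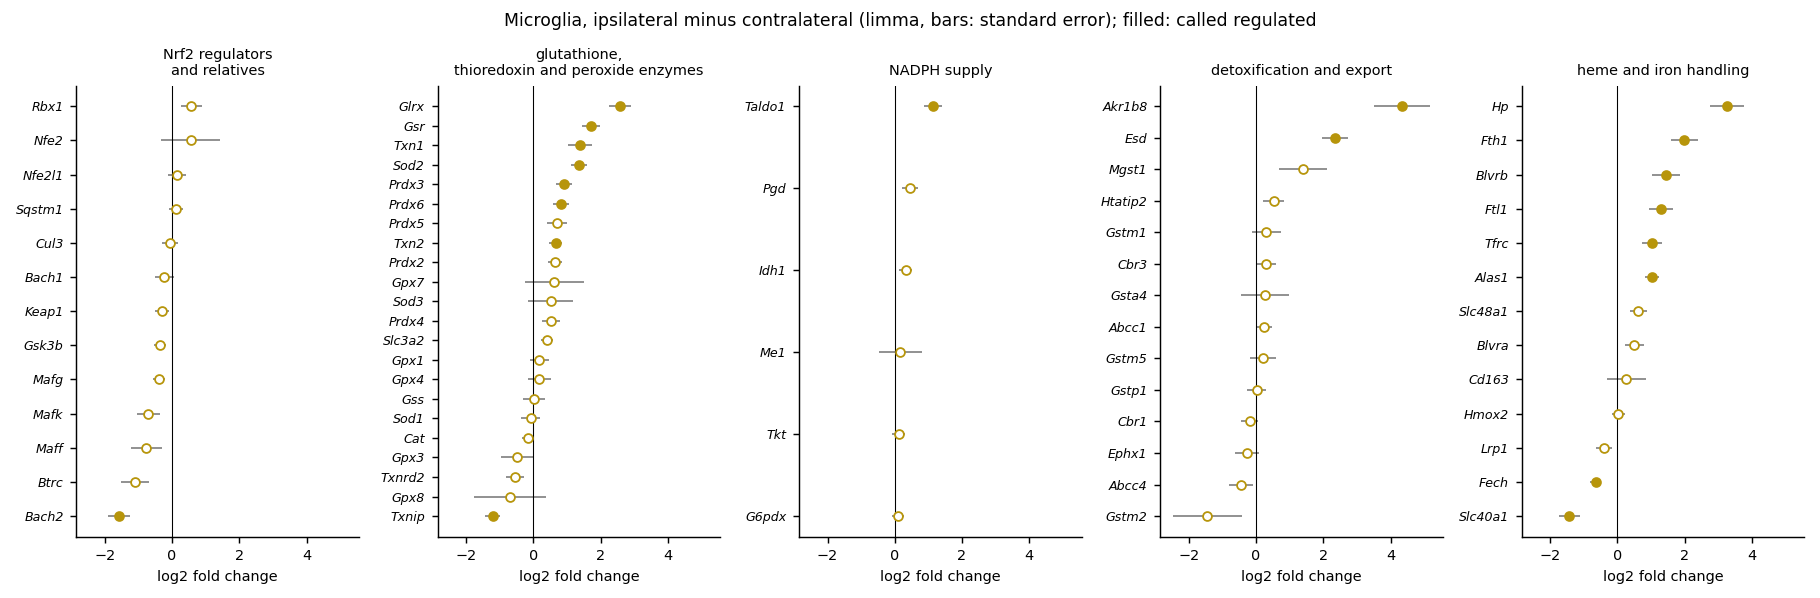
Log2 fold changes in microglia (x axis, ipsilateral minus contralateral, bars are standard errors) of the tested genes of the 5 lists, sorted within each list and filled where called regulated. *Akr1b8* (4.34), *Hp* (3.27) and *Glrx* (2.58) lie farthest right, *Bach2* (-1.58), *Slc40a1* (-1.43) and *Txnip* (-1.21) are called to the left.

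With the pool of mice as a block, a few more list genes were called. These were the peroxiredoxin *Prdx5* in pericytes (log2 fold change 0.61, limma, adjusted p = 0.0499) and the glutathione transferases *Gstm5* and *Gsta4* in astrocytes (-0.79 and -0.76, adjusted p = 0.0499 and 0.0471). In microglia the peroxiredoxin *Prdx2* (0.65, adjusted p = 0.0422) and the ubiquitin ligase subunit *Btrc* (-1.10, adjusted p = 0.0426) were added.

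Finally, the 24 paired log2 changes of each gene, 6 in each cell type, were set against those of the members as a description. The changes share pools of mice and library depth. Among 15003 genes, those most like *Hmox1* were *Pfkfb4* (Pearson r = 0.84), *Enc1* (0.82), *Hs6st1* (0.79), *Nav1* (0.78) and *Tm6sf1* (0.77). The nearest gene to *Prdx1* was *Fth1* (r = 0.91), to *Txnrd1* *Itga5* (0.90), to *Gclc* *Prkaca* (0.90), to *Osgin1* *Mfng* (0.87) and to *Nqo1* *Txndc5* (0.83). *Gclm* was nearest to *Rnf11* (0.81), *Slc7a11* to *Pla2g7* (0.79), *Nfe2l2* to *Gm17056* (0.76) and *Srxn1* to *Ifi205* (0.75). These were picked as the highest values among 15003 genes. Among the far fewer pairs of members the highest r was 0.63, between *Gclc* and *Gclm*, and *Hmox1* had r = 0.10 with *Srxn1* and 0.06 with *Txnrd1*.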

How the data were processed

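RNA of sorted cells was amplified from low input and sequenced single-end, and whether reads were counted by strand is not given in the sources used here. Per the study's methods and the submitters' processing notes, the authors trimmed reads (Trimmomatic 0.38), aligned them to mm10 (GRCm38) with STAR 2.6.1d, counted reads over exons with featureCounts 1.6.3, leaving out reads over several genes or sites, and normalized with DESeq2 1.18.1. The deposited values are such normalized counts rounded to whole numbers, treated here as a score and not as raw counts, so no count model was used.

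Log2(value + 1) was tested with limma 3.58.1 (R 4.3.3; lmFit, eBayes with trend, two-sided, Benjamini-Hochberg) per cell type over 12 libraries, leaving out genes that averaged under 10. This scale understates changes of low genes. Differences between cell types came from a fit of 48 libraries with 8 groups. Both hemispheres of a replicate came from the same pool of mice, so replicates are paired: deviations of same-numbered libraries had mean correlations of 0.23 (EC), 0.23 (PC), 0.38 (AC) and 0.14 (MG), against -0.08 to -0.03 for other numbers. The fit without the block is the main one, and the study's methods state no block.

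Depth was estimated from the step between low values and covers counting error only. Exon lengths and overlaps came from GENCODE vM21. The code was tested on simulated data. The members, the gene lists and the markers were chosen with earlier results of these data known. Named genes are all members, up to 6 called genes per list with the smallest adjusted p, and the genes with the most similar paired changes. *Hmox2*, *Keap1* and the genes called only with the block were named after their values were seen. The list genes *Gsta1*, *Ugt1a6a*, *Flvcr1* and *Flvcr2* were not analysed here. Alternatives changed the pseudocount (0.1, 10), filters, thresholds, scaling, fit, block and replicates.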

Additional observations from a re-analysis of the deposited data

Results flagged for a closer look

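Of 80 groups of 6 libraries (10 members in 8 groups), 11 held a library far from the other 5 by Dixon's test on the normalized counts. The test flags about 1 in 20 groups by chance where values are normally distributed, which was not checked for these counts. Ipsilateral endothelial replicate 1 was low for *Txnrd1* (388 normalized counts, others 1287 to 1648) and replicate 3 for *Gclm* (1164, others 2065 to 2432). High ipsilateral endothelial values were those of *Osgin1* in replicate 5 (1521, others 506 to 866) and *Nfe2l2* in replicate 6 (2296, others 1612 to 1834). On the contralateral side, endothelial replicate 2 was high for both *Nfe2l2* (2809, others 1720 to 2019) and *Prdx1* (16301, others 5520 to 9170), and replicate 4 for *Slc7a11* (136, others 0 to 39).

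The other outlying libraries were all contralateral and high: pericyte replicate 3 for *Hmox1* (1693, others 0 to 361), astrocyte replicate 6 for *Gclc* (2240, others 389 to 612), astrocyte replicate 4 for *Prdx1* (11165, others 7803 to 8685) and microglial replicate 5 for *Slc7a11* (398, others 65 to 138).

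The stroke change of *Prdx1* differed between cell types, being larger in microglia by 1.78 than in endothelial cells, by 1.43 than in pericytes and by 1.89 than in astrocytes on the log2 scale (limma, adjusted p = 0.0107, 0.0297 and 0.00353).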

How the results depend on the processing

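The number of members called higher stayed within 1.5 times the reported number under most alternatives. In endothelial cells, where 2 were called, it was 4 with a pseudocount of 10 and 1 from replicates 1 to 4 alone. In pericytes, where 0 were called, it was 3 in the joint fit of 48 libraries and 2 from replicates 5 and 6 alone. In astrocytes, where 3 were called, it was 1 from replicates 5 and 6 alone. Leaving out 1 replicate at a time gave 2 in endothelial cells, 0 in pericytes, 2 to 3 in astrocytes and 5 to 6 in microglia. Of the differences in stroke change, 1 of 60 was called from replicates 5 and 6 alone and 0 to 3 when 1 replicate was left out. For contralateral levels 32 to 35 of 60 remained called without 1 replicate. The cause of these shifts was not tested.

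With the replicate block, 38 of 60 contralateral levels and 4 of 60 stroke differences were called, and apart from the calls given above the block changed no other call of a member. Over all genes, astrocytes had 191 higher and 51 lower calls with the block against 51 and 1 without it, and pericytes 93 and 133 against 60 and 79.

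Some log2 values changed sign, and all but the last given here were uncalled. *Gclc* in astrocytes was -0.0033 and became 0.05 after rescaling, 0.19 from replicates 5 and 6, and -0.18 to 0.13 with 1 replicate left out. *Gclc* in microglia was -0.32 from replicates 1 to 4. *Nqo1* in pericytes was -0.49 from replicates 5 and 6, -0.19 and -0.14 without replicate 1 or 4, and at most 0.25 with 1 replicate left out. *Nfe2l2* became 0.06 in endothelial cells, -0.03 in pericytes and 0.15 in microglia from replicates 5 and 6, and in astrocytes -0.10 from replicates 1 to 4 and -0.02 to 0.14 with 1 replicate left out. *Osgin1* in microglia was 0.26 from replicates 5 and 6. The level of *Slc7a11* in microglia minus pericytes, called as 3.28, was -0.15 from replicates 5 and 6 alone. With 3 reads standing for 2.0 to 7.1 normalized counts, depth limits *Nqo1* in microglia and contralateral *Slc7a11* in endothelial cells.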
